A study of Mus musculus with 168 samples.

Results

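The genes described here are 9 targets of the transcription factor p53 that promote cell death: Fas, Tnfrsf10b, Pmaip1, Bbc3, Bax, Perp, Aen, Zmat3 and Phlda3. They were chosen by name, with earlier results of these data known, and all 9 were found among the 39410 rows of the expression table. The study collected neurons by laser from frozen sections of midbrain, brainstem and lumbar spinal cord of mice at postnatal days 2, 5 and 10. About 150 cells were pooled per tube and sequenced as polyA RNA with Smart-seq2, a full-length cDNA method, in 168 libraries of 34 mice. Levels are RPKM, read counts corrected for the length of the gene and the size of the library, and the mouse was the replicate, which gave 160 samples of mouse and population.

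SMA mice (19 animals) were delta7 mice, which model spinal muscular atrophy, in which loss of the survival motor neuron protein leads to death of motor neurons. They lacked mouse Smn (Smn-/-) and were homozygous for the human SMN2 gene and for the SMN∆7 transgene. Control mice (15 animals) were littermates that kept Smn (Smn+/+) and carried both human transgenes as well, so no group was free of them. There were 6 controls and 9 SMA mice of day 2, 5 and 5 of day 5, and 4 and 5 of day 10. The 6 populations were motor neurons of the oculomotor and trochlear nuclei (ocular), the facial, hypoglossal and vagus nuclei and the lumbar cord, and red nucleus neurons, which are not motor neurons. Each of the 36 groups of population, age and genotype held 3 to 7 mice.

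Smn1 was at 4.32 RPKM or more in all 72 control samples and at 4.24 or less in all 88 SMA samples, 70 of which were at 0. At day 10 the acetylcholine-synthesizing enzyme Chat averaged 18.2 to 45.3 RPKM in the motor populations, and in the red nucleus 0.464 in controls and 0 in SMA. Pou4f1, a red nucleus marker, averaged 145 RPKM in red nucleus controls and 124.8 in SMA. Libraries held between 0.342 and 16.3 M reads, with a median of 5.89 M. The libraries under 2 M were red nucleus control mouse 252 at day 10 and facial SMA mouse 206 at day 2. Where all controls were at 0, folds were taken against the level that 3 reads would give. In bulk samples, fewer cells that express a gene and less RNA per cell cannot be told apart.

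p53 is kept low in healthy cells by the ubiquitin ligase Mdm2 and accumulates after DNA damage and other stress. It then binds response elements near its target genes and turns them on. Some targets halt the cell cycle, and others feed the extrinsic death pathway, which starts at receptors on the cell surface, or the intrinsic one, in which BCL-2 proteins open the outer mitochondrial membrane. Fas and Tnfrsf10b encode death receptors, for Fas ligand and for TRAIL. Pmaip1 (NOXA) and Bbc3 (PUMA) encode BH3-only proteins that relieve the block on the pore-forming protein Bax. Perp encodes a tetraspan membrane protein, Aen an apoptosis-enhancing nuclease, Zmat3 a zinc finger protein that binds RNA, and Phlda3 a pleckstrin homology domain protein that restrains AKT survival signaling. In SMA mice p53 is known to accumulate in vulnerable spinal motor neurons, and ocular motor neurons are known to be relatively spared.

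In GENCODE M21 (GRCm38), Fas lies on chromosome 19 from 34290666 to 34327772, Tnfrsf10b on chromosome 14 from 69767472 to 69784411 and Perp on chromosome 10 from 18845020 to 18857073, all on the plus strand. On chromosome 7 lie Bax (45461697 to 45466898, minus strand), Bbc3 (16308393 to 16318205, plus strand) and Aen (78895854 to 78911209, plus strand). Zmat3 lies on chromosome 3 from 32334792 to 32366014 on the minus strand, and Phlda3 on chromosome 1 from 135766119 to 135769136 on the plus strand. The protein-coding model Gm45808 overlaps Bax on the same strand, and the small RNA gene Gm27818 lies within Fas, so the reads of these neighbours may be shared.

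Promoter sequences from RefSeq (GRCm38.p6), 250 bases before to 50 after a transcript start, were matched by symbol for 5 of the 9 genes: Fas, Bax, Bbc3, Aen and Phlda3. Tnfrsf10b, Pmaip1, Perp and Zmat3 were not matched. The p53 response element is a pair of copies of the p53 decamer, which reads purines, C, A or T bases, G, pyrimidines and is its own reverse complement, so a single search covers both strands. An exact decamer stands in 2745 of the 32851 promoters in that table (8.36%), and a pair with up to 13 bases between in 24 (0.0731%). Bax has a decamer before its start, and both Aen starts hold one, while no exact decamer stands in the windows of Fas, Phlda3 or the 3 Bbc3 starts. The whole Fas window is shown because Fas is the member that passed the test in the most populations, and 60 bases of Bax, Aen and Cdkn1a because they hold a match. Cdkn1a, the p53 target used for comparison, has a pair with 12 bases between, beginning 73 bases before the start of one transcript. Capitals mark exact decamers, and each sequence is given 5′ to 3′ on the strand of its gene.
Fas, chr19:34290409-34290708, plus strand: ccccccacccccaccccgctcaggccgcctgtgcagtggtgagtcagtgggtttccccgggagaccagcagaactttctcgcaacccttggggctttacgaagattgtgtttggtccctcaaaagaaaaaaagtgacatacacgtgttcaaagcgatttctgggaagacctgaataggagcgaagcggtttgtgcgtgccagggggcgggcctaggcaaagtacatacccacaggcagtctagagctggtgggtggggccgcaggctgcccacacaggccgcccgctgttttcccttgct
Bax, chr7:45467065-45467124, minus strand: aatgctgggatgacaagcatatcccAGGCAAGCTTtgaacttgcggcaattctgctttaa
Aen, chr7:78895912-78895971, plus strand: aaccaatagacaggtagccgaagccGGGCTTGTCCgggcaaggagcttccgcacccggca
Cdkn1a, chr17:29090892-29090951, plus strand: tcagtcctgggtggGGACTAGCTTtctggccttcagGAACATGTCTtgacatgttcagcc

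Each population and age gave a contrast of SMA mice against controls, 18 in all, on log2(RPKM + 1) with limma and Benjamini-Hochberg adjustment over all genes of the contrast. Every call among the 9 genes was a rise in SMA at day 10. Facial neurons had 4 (Fas, Tnfrsf10b, Pmaip1 and Perp) of 9 tested, against 0.562% of all genes called higher there. Ocular neurons had 2 (Fas and Pmaip1) of 9, against 0.334%, and lumbar neurons the same 2 of 8 tested, against 0.708%. Hypoglossal neurons had Fas alone of 7 tested, against 0.0667%. Apart from facial Fas and Perp, these calls are of genes that control samples alone would not have brought past the filter on low values. Of the 6 tested in vagus and of the 6 in red nucleus neurons none passed (0 and 0.0062% of all genes), with 1 and 0 of them at an unadjusted p under 0.05.

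The estimates of all tested members were above 0 at day 10, except Perp in vagus neurons. Over the 6 members tested in every population (Bbc3, Bax, Perp, Aen, Zmat3 and Phlda3), the median log2 difference at that age was 0.99 in facial, 0.83 in ocular, 0.68 in lumbar and 0.33 in hypoglossal neurons, where the median over all genes was 0.01, 0.06, 0.05 and 0.08. In vagus and red nucleus neurons it was 0.41 and 0.61, beside 0.02 and 0.13 over all genes. Fas, Tnfrsf10b and Pmaip1 were left out of these medians because they missed the filter on low values in some populations. Where these 3 genes were tested, control samples alone would not have met the filter, except for Fas in facial neurons, with 3 control samples at 1 RPKM or more.

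**Figure D1:**
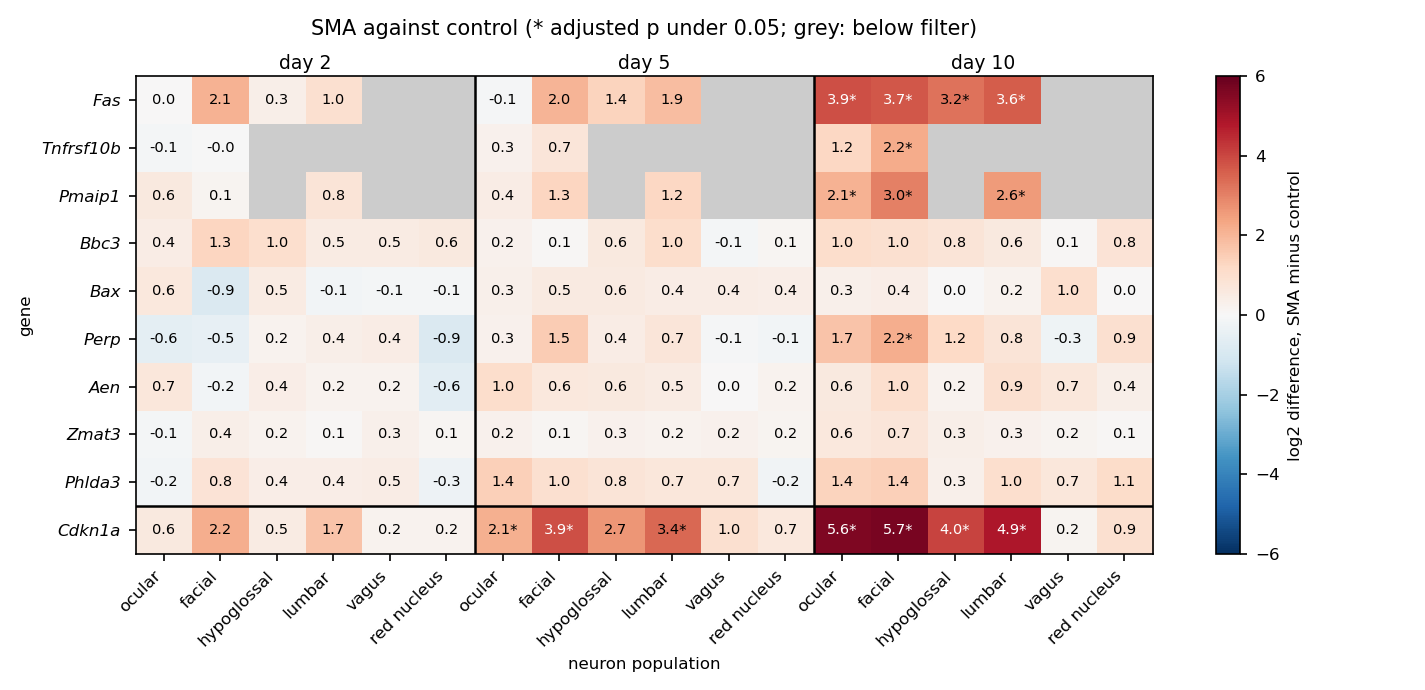
Log2 difference between SMA and control on the log2(RPKM + 1) scale for the 9 genes and Cdkn1a (rows) in each population and age (columns); an asterisk marks an adjusted p under 0.05 and grey a gene below the filter. All asterisks of the 9 genes stand at day 10, with the largest value for Fas in ocular neurons (3.89), while Cdkn1a has asterisks at day 5 as well.

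The death receptor Fas had the largest log2 difference and passed in 4 populations, against 3 for Pmaip1, which was below the filter in hypoglossal neurons. For Pmaip1 and Tnfrsf10b, too, every SMA mouse lay above every control at day 10 in ocular, facial, hypoglossal and lumbar neurons. At day 10 the RPKM of Fas in ocular neurons was 0, 0, 0.0610 and 2.10 in the 4 control mice and 9.68, 15.3, 17.1, 26.1 and 35.95 in the 5 SMA mice. In facial neurons it was 0, 0.435, 0.914 and 1.15 in controls and 14.3, 15.01, 23.3 and 28.7 in SMA. In hypoglossal neurons all 4 controls were at 0 and SMA mice were at 3.601, 7.78, 8.97, 9.13 and 17.4. The groups did not overlap in any of these populations, and every SMA mouse lay above every control.

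In lumbar neurons all 4 controls were again at 0, and SMA mice had 3.23, 10.0, 15.4, 16.6 and 19.7 RPKM of Fas at day 10. The log2 differences were 3.89 ± 0.56 (SE) in ocular, 3.72 ± 0.47 in facial, 3.24 ± 0.39 in hypoglossal and 3.62 ± 0.53 in lumbar neurons (limma, adjusted p of 0.000158, 2.06e-05, 7.71e-05 and 0.000248). Against the highest 3-read floor among the control libraries, the SMA mean was at least 14.2-fold higher in hypoglossal and at least 18.4-fold higher in lumbar neurons. Fas stayed near 0 in the other populations: all 4 vagus controls were at 0 and the 5 SMA mice at 0, 0, 0, 0.0622 and 0.311, and the red nucleus had 0 in all mice but SMA mouse 249, at 1.87. Fas was not tested in these 2 populations because it did not reach the filter.

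Before day 10 no test of Fas passed. In facial neurons at day 2 the controls were at 0, 0, 0, 0.624 and 0.837 RPKM and the 7 SMA mice ran from 2.45 to 6.46 with a median of 4.49, without overlap. That log2 difference was 2.07 ± 0.39 (SE) with an adjusted p of 0.0513 in limma, just short of the threshold. It passed with quantile normalization (adjusted p = 0.0301), with robust variance estimation (0.0485), with all samples in one fit (0.00127) and without SMA mouse 16 (0.0458) or control mouse 14 (0.0498). Mouse 16 was the lowest SMA and mouse 14 the highest control value, so leaving out either raises the difference. Only passing settings are named in that list, and leaving out each mouse in turn gave 0 to 1 calls among the members there. The library numbers of control mice 240 and 244 lie above those of all SMA libraries of day 2, and without these mice the difference was 2.09 (adjusted p = 0.123). At day 5 facial controls were at 0, 0, 2.10 and 6.36 and SMA mice at 5.92, 9.05 and 9.43, and the groups overlapped through control mouse 29 (2.04 ± 0.51, adjusted p = 0.314). Without that mouse the difference was 2.62 (adjusted p = 0.0140). It was picked as the highest control, so leaving it out had to raise the difference, and this is no test of onset.

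Lumbar neurons held some Fas in controls at day 2, at 0.865, 0.920, 1.60 and 4.09 RPKM, and the 7 SMA mice ran from 0.885 to 8.77 with a median of 4.88. At day 5 lumbar controls were at 0, 0, 0, 0.482 and 4.86 and SMA mice at 1.82, 3.46, 4.97, 5.66 and 9.82. The groups overlapped at both ages, with differences of 0.96 ± 0.49 and 1.86 ± 0.50 (adjusted p of 0.905 and 0.203). Without control mouse 30, the one at 4.86, the day 5 difference was 2.34 (adjusted p = 0.0468). That mouse was the highest control, so leaving it out had to raise the difference, and the result is no test of onset.

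Hypoglossal neurons had Fas in SMA at day 5, at 0.356, 0.420, 3.21 and 4.29 RPKM against 0 in all 4 controls (1.36 ± 0.42, adjusted p = 0.649). Ocular neurons had none at day 2 in any of 4 control and 6 SMA mice. At day 5 a single ocular mouse in each genotype stood out, control mouse 75 at 6.11 and SMA mouse 76 at 7.11, while the others were at 0.198 or less. The genotype difference in ocular Fas changed with age (limma F over both age terms, adjusted p = 0.0263), and it was 3.89 ± 0.78 larger at day 10 than at day 2 (adjusted p = 0.0281). Ocular Fas reached the filter only with its SMA samples counted.

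**Figure D2:**
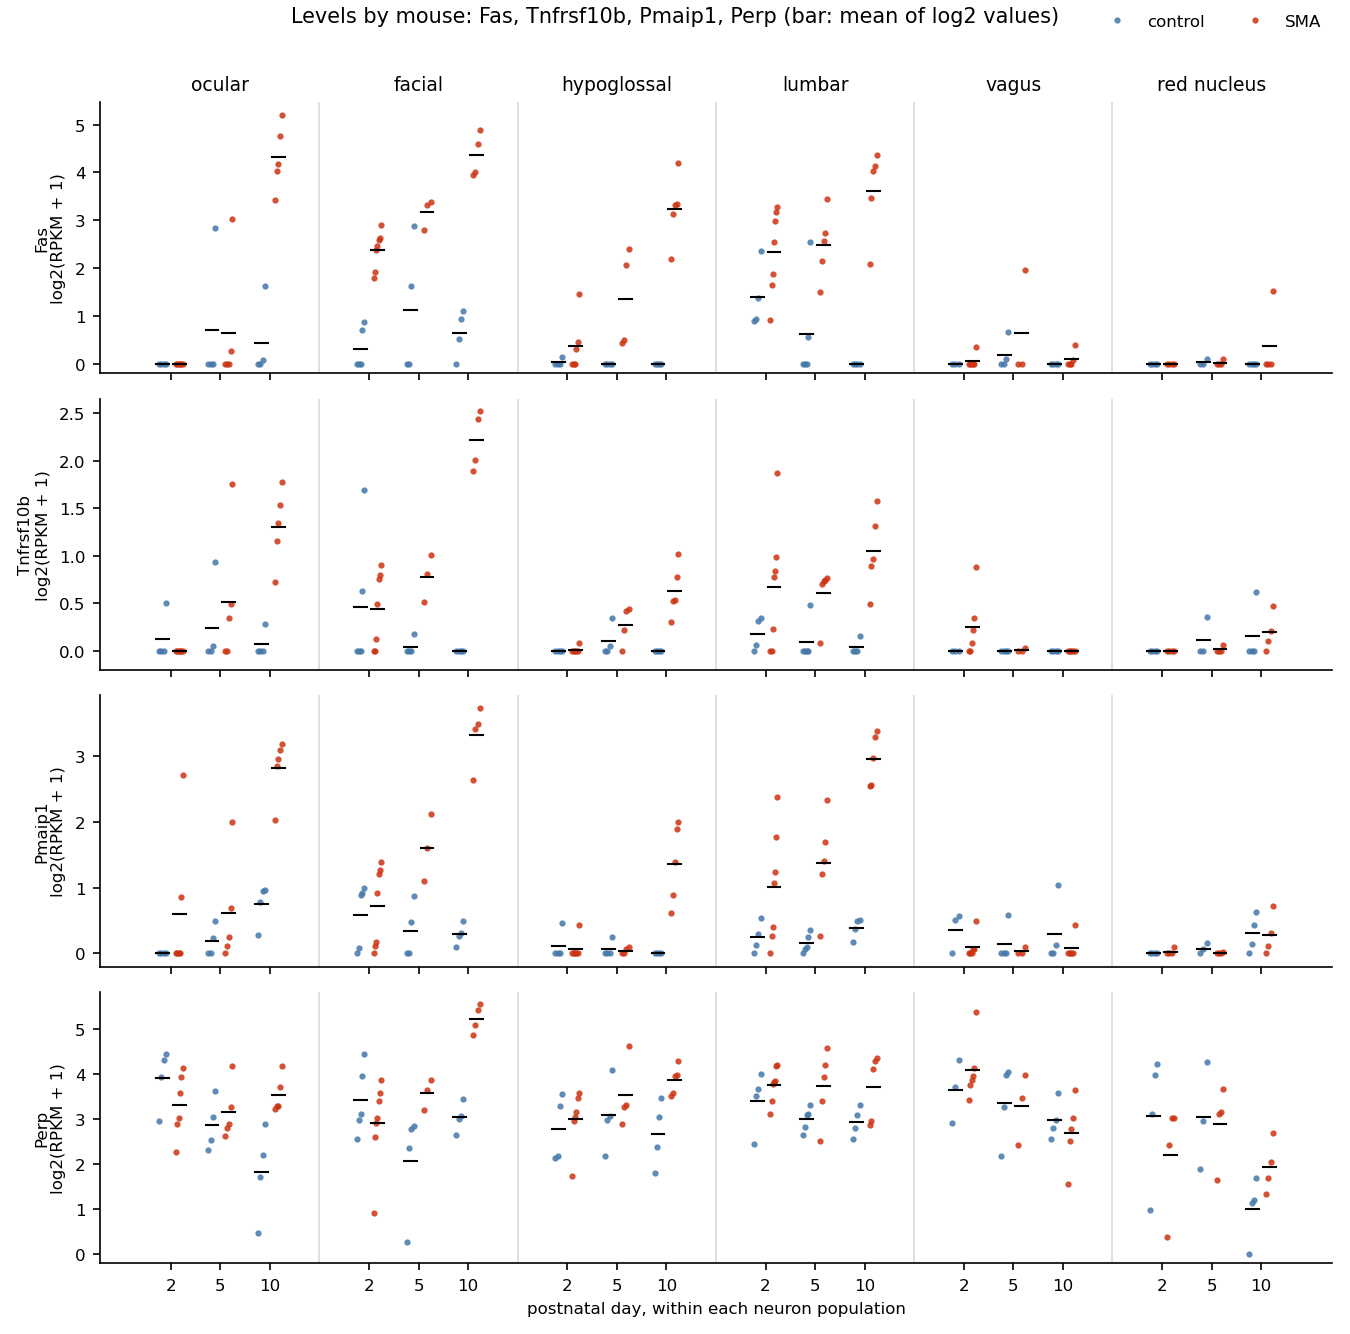
Levels of Fas, Tnfrsf10b, Pmaip1 and Perp as log2(RPKM + 1) for each mouse (points) by population and postnatal day, control in blue and SMA in red, with the mean of the log2 values as a black bar. At day 10 the 4 facial SMA mice lie above all 4 controls for each gene, and in vagus neurons Tnfrsf10b is at 0 in all 9 mice.

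Tnfrsf10b, the TRAIL receptor, was the faintest of the 9 genes and was highest in facial neurons of SMA mice. At day 10 all 4 facial controls were at 0 RPKM and the SMA mice were at 2.73, 3.03, 4.42 and 4.76, from 28 to 52 reads each. The log2 difference was 2.22 ± 0.33 (adjusted p = 0.000241), and the SMA mean was at least 10.9-fold above the highest 3-read floor of the controls. In ocular neurons controls were at 0, 0, 0 and 0.219 and SMA mice at 0.657, 1.23, 1.54, 1.89 and 2.43, without overlap, but the test did not pass (1.24 ± 0.30, adjusted p = 0.0824). It passed there with no filter (0.0419), with each library as its own sample (0.0145) and without SMA mouse 258 (0.0492). Only passing settings are named here, and the main test did not pass.

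In lumbar neurons at day 10 Tnfrsf10b was at 0, 0, 0 and 0.116 RPKM in controls and at 0.408, 0.854, 0.951, 1.48 and 1.99 in SMA. In hypoglossal neurons all 4 controls were at 0 and SMA mice were at 0.231, 0.444, 0.456, 0.711 and 1.029. Both pairs of groups were separate, yet neither population reached the filter. With no filter the adjusted p was 0.109 in lumbar and 0.0131 in hypoglossal neurons. The receptor was at 0 in all 9 vagus mice at day 10, and in the red nucleus it ran from 0 to 0.539 in controls and from 0 to 0.390 in SMA.

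At day 5 the 3 facial SMA mice had 0.429, 0.750 and 1.01 RPKM of Tnfrsf10b against 0, 0, 0 and 0.131 in controls (0.73 ± 0.35, adjusted p = 0.910). At day 2 the facial groups overlapped throughout, from 0 to 2.23 in controls and from 0 to 0.877 in SMA. The facial difference was 2.24 ± 0.42 larger at day 10 than at day 2 (adjusted p = 0.0173). The F test over both age terms gave an adjusted p of 0.0604. Facial Tnfrsf10b reached the filter only with its SMA samples counted.

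Pmaip1, the BH3-only protein NOXA, rose with Fas. At day 10 its RPKM in facial neurons was 0.0733, 0.203, 0.242 and 0.410 in controls and 5.19, 9.59, 10.2 and 12.3 in SMA. In lumbar neurons it was 0.132, 0.300, 0.413 and 0.418 in controls and 4.81, 4.88, 6.87, 8.79 and 9.38 in SMA. In ocular neurons controls had 0.208, 0.728, 0.939 and 0.958 and SMA mice 3.07, 6.20, 6.72, 7.54 and 8.08. No group overlapped, and the lowest SMA mouse of each population was above 3 RPKM.

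The log2 differences of Pmaip1 were 3.02 ± 0.38 for facial neurons, 2.56 ± 0.38 for lumbar and 2.07 ± 0.45 for ocular ones (adjusted p of 1.65e-05, 0.000286 and 0.0243). The ocular call was lost when any of 8 of the 9 mice was left out (adjusted p between 0.0573 and 0.146), and with a pseudocount of 0.1 (0.501). Hypoglossal controls were all at 0 and SMA mice at 0.532, 0.858, 1.63, 2.69 and 2.98, below the filter, and with no filter the adjusted p was 0.00143. In vagus and red nucleus neurons SMA mice reached 0.350 and 0.643 and controls 1.05 and 0.554.

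Earlier, Pmaip1 was separate between genotypes in facial neurons at day 5, at 0, 0, 0.398 and 0.837 RPKM in controls and 1.15, 2.03 and 3.35 in SMA (1.27 ± 0.41, adjusted p = 0.655). In lumbar neurons at day 5 controls had 0, 0.0452, 0.0677, 0.185 and 0.284 and SMA mice 0.199, 1.32, 1.64, 2.25 and 4.03, where 4 of the 5 SMA mice lay above all controls (1.23 ± 0.36, adjusted p = 0.263). The facial difference changed with age (F, adjusted p = 0.0198) and was 2.87 ± 0.49 larger at day 10 than at day 2 (adjusted p = 0.00574). Fas in ocular and Pmaip1 in facial neurons were the only members past this F test, against 0.101% and 0.104% of all genes. Control samples alone would not have brought either past the filter there, with 2 and 0 control samples at 1 RPKM or more. The shares of all genes are therefore only a rough comparison. No gene passed it in vagus, hypoglossal, lumbar or red nucleus neurons (0, 0, 0 and 0%).

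**Figure D3:**
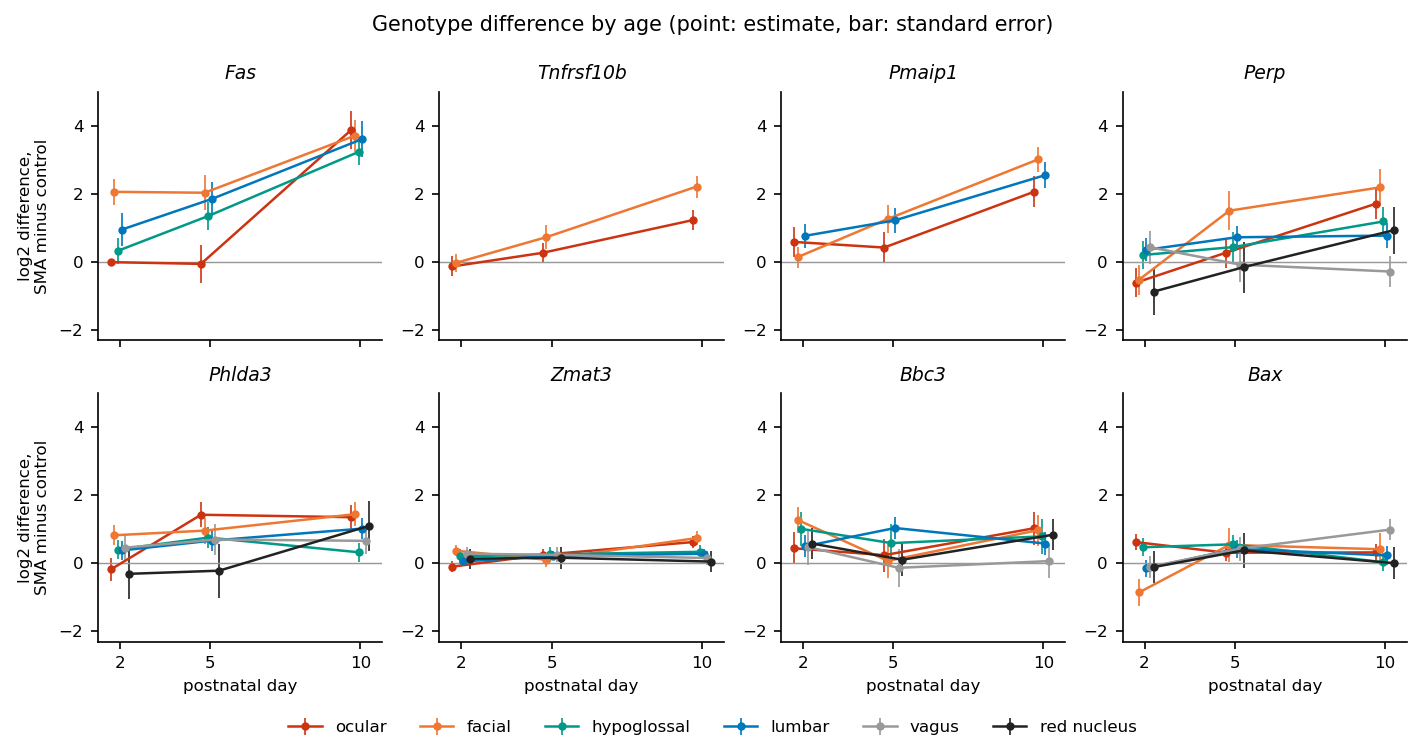
Log2 difference between SMA and control (points, with standard errors as bars) by postnatal day for 8 of the 9 genes, a line for each population in which the gene was tested. The facial Fas difference is 2.07 at day 2 and 3.72 at day 10, while the ocular one goes from 0 to 3.89.

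Bbc3, the BH3-only protein PUMA, was expressed in all populations and passed in none of its 18 tests, 17 of which had an estimate above 0. Its largest estimate was in facial neurons at day 2, with 0.990, 1.36, 3.5997, 5.02 and 6.43 RPKM in controls and 4.25 to 19.5 (median 7.62) in the 7 SMA mice (1.28 ± 0.38, adjusted p = 0.333). In hypoglossal neurons at day 2 controls had 1.65, 1.79, 2.10 and 3.07 and the 6 SMA mice 3.40 to 13.7 (median 4.50), without overlap (1.01 ± 0.50, adjusted p = 0.531). At day 10 the facial values were 2.03, 2.71, 3.26 and 4.19 against 4.16, 5.07, 8.13 and 11.9, which overlapped by a single mouse (0.97 ± 0.46, adjusted p = 0.614).

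Bax was the most abundant of the 9 genes, with 6.74 to 158 RPKM over all samples, and passed in no contrast. At day 10 its log2 differences ran from 0.01 in red nucleus to 0.99 in vagus neurons. Vagus controls were at 20.4, 21.3, 26.5 and 34.3 and SMA mice at 23.3, 47.4, 49.0, 49.3 and 126.1 (0.99 ± 0.31, adjusted p = 0.870). In lumbar neurons they were at 41.6, 75.0, 81.99 and 88.7 and at 46.1, 70.7, 85.8, 106.1 and 119.2 (0.23 ± 0.28, adjusted p = 0.862). The groups overlapped in every population at day 10.

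Perp, the tetraspan protein, rose in facial neurons. At day 10 facial controls had 5.27, 7.04, 7.45 and 9.88 RPKM and SMA mice 28.4, 33.03, 42.4 and 46.0, without overlap. The difference of 2.20 ± 0.53 passed narrowly (adjusted p = 0.0496) and did not pass when any of the 8 mice was left out (0.0714 to 0.156), with a pseudocount of 0.1 (0.252), with no filter (0.0782) or with quantile normalization (0.0804). Ocular controls were at 0.387, 2.28, 3.64 and 6.46 and SMA mice at 8.32, 8.78, 8.87, 12.1 and 17.3 (1.72 ± 0.44, adjusted p = 0.119). The ocular test did not pass, and among its alternatives only a passing one is named here, without control mouse 253 (0.0388).

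Hypoglossal Perp at day 10 was also separate, at 2.48, 4.23, 7.24 and 10.2 RPKM in controls and 10.52, 11.1, 14.7, 14.8 and 18.6 in SMA (1.19 ± 0.43, adjusted p = 0.573). In ocular controls Perp fell with age, from 15.2 ± 6.24 RPKM (SD, n = 4) at day 2 to 3.19 ± 2.55 (n = 4) at day 10 (log2 difference −2.09 ± 0.47 SE, limma, adjusted p = 0.00462). In ocular SMA mice it averaged 9.91 ± 4.98 (n = 6) at day 2 and 11.1 ± 3.78 (n = 5) at day 10. The genotype difference in ocular Perp was 2.32 ± 0.61 (SE) larger at day 10 than at day 2, which did not pass (limma, adjusted p = 0.206). The F test over both age terms did not pass either (adjusted p = 0.432). Facial Perp separated the genotypes at day 5 too, with 0.196, 4.11, 5.91 and 6.26 in controls and 8.20, 11.6 and 13.6 in SMA (1.51 ± 0.58, adjusted p = 0.827).

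Phlda3, the AKT inhibitor, was separate between genotypes in ocular and facial neurons from day 5 on, but no test passed. At day 5 ocular controls had 13.1, 19.0, 29.5 and 52.2 RPKM and SMA mice 55.97, 62.9, 71.6, 76.3 and 81.2 (1.43 ± 0.36, adjusted p = 0.304). Facial controls had 24.1, 38.9, 41.0 and 47.8 and SMA mice 55.997, 58.7 and 116.8 (0.96 ± 0.38, adjusted p = 0.846).

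At day 10 Phlda3 in facial neurons was at 18.4, 21.8, 21.9 and 27.8 RPKM in controls and 35.6, 67.0, 75.6 and 82.97 in SMA, a difference of 1.44 ± 0.35 that just missed the threshold (adjusted p = 0.0507). It passed without SMA mouse 249, the one at 35.6 (1.71, adjusted p = 0.0199). That mouse was the lowest SMA value, so leaving it out had to raise the difference. Ocular neurons had 16.5, 29.3, 29.8 and 32.4 against 48.0, 61.9, 66.1, 74.7 and 104 (1.36 ± 0.36, adjusted p = 0.154), and lumbar neurons 28.2, 44.1, 46.0 and 46.9 against 66.6, 75.9, 76.4, 77.2 and 133 (1.02 ± 0.31, adjusted p = 0.145). The groups were separate in these 3 populations and overlapped in the other 3.

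Zmat3, the RNA-binding protein, was expressed in all 160 samples and passed in no contrast. At day 10 facial controls were at 14.1, 14.2, 16.3 and 16.9 RPKM and SMA mice at 21.8, 25.6, 26.9 and 31.7, without overlap (0.74 ± 0.19, adjusted p = 0.0807). It passed there with no filter (0.0260) and with all samples in one fit (0.00656). Ocular controls were at 14.4, 15.5, 17.1 and 21.6 and SMA mice at 22.8, 23.6, 25.6, 29.0 and 33.8 (0.62 ± 0.18, adjusted p = 0.219), which passed with all samples in one fit (0.0370). Hypoglossal neurons were separate as well, at 15.4 to 19.0 against 19.4 to 24.1 (0.34 ± 0.21, adjusted p = 0.831).

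Aen, the nuclease, was at 0 to 18.1 RPKM over all samples and passed in no contrast, with 16 of 18 estimates above 0. Its largest estimate was in ocular neurons at day 5, with 1.29, 1.63, 2.95 and 3.47 in controls and 3.98, 4.67, 6.17, 6.78 and 6.85 in SMA, without overlap (adjusted p = 0.672). At day 10 the ocular groups overlapped, at 1.08 to 2.96 and 0.847 to 7.33.

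**Figure D4:**
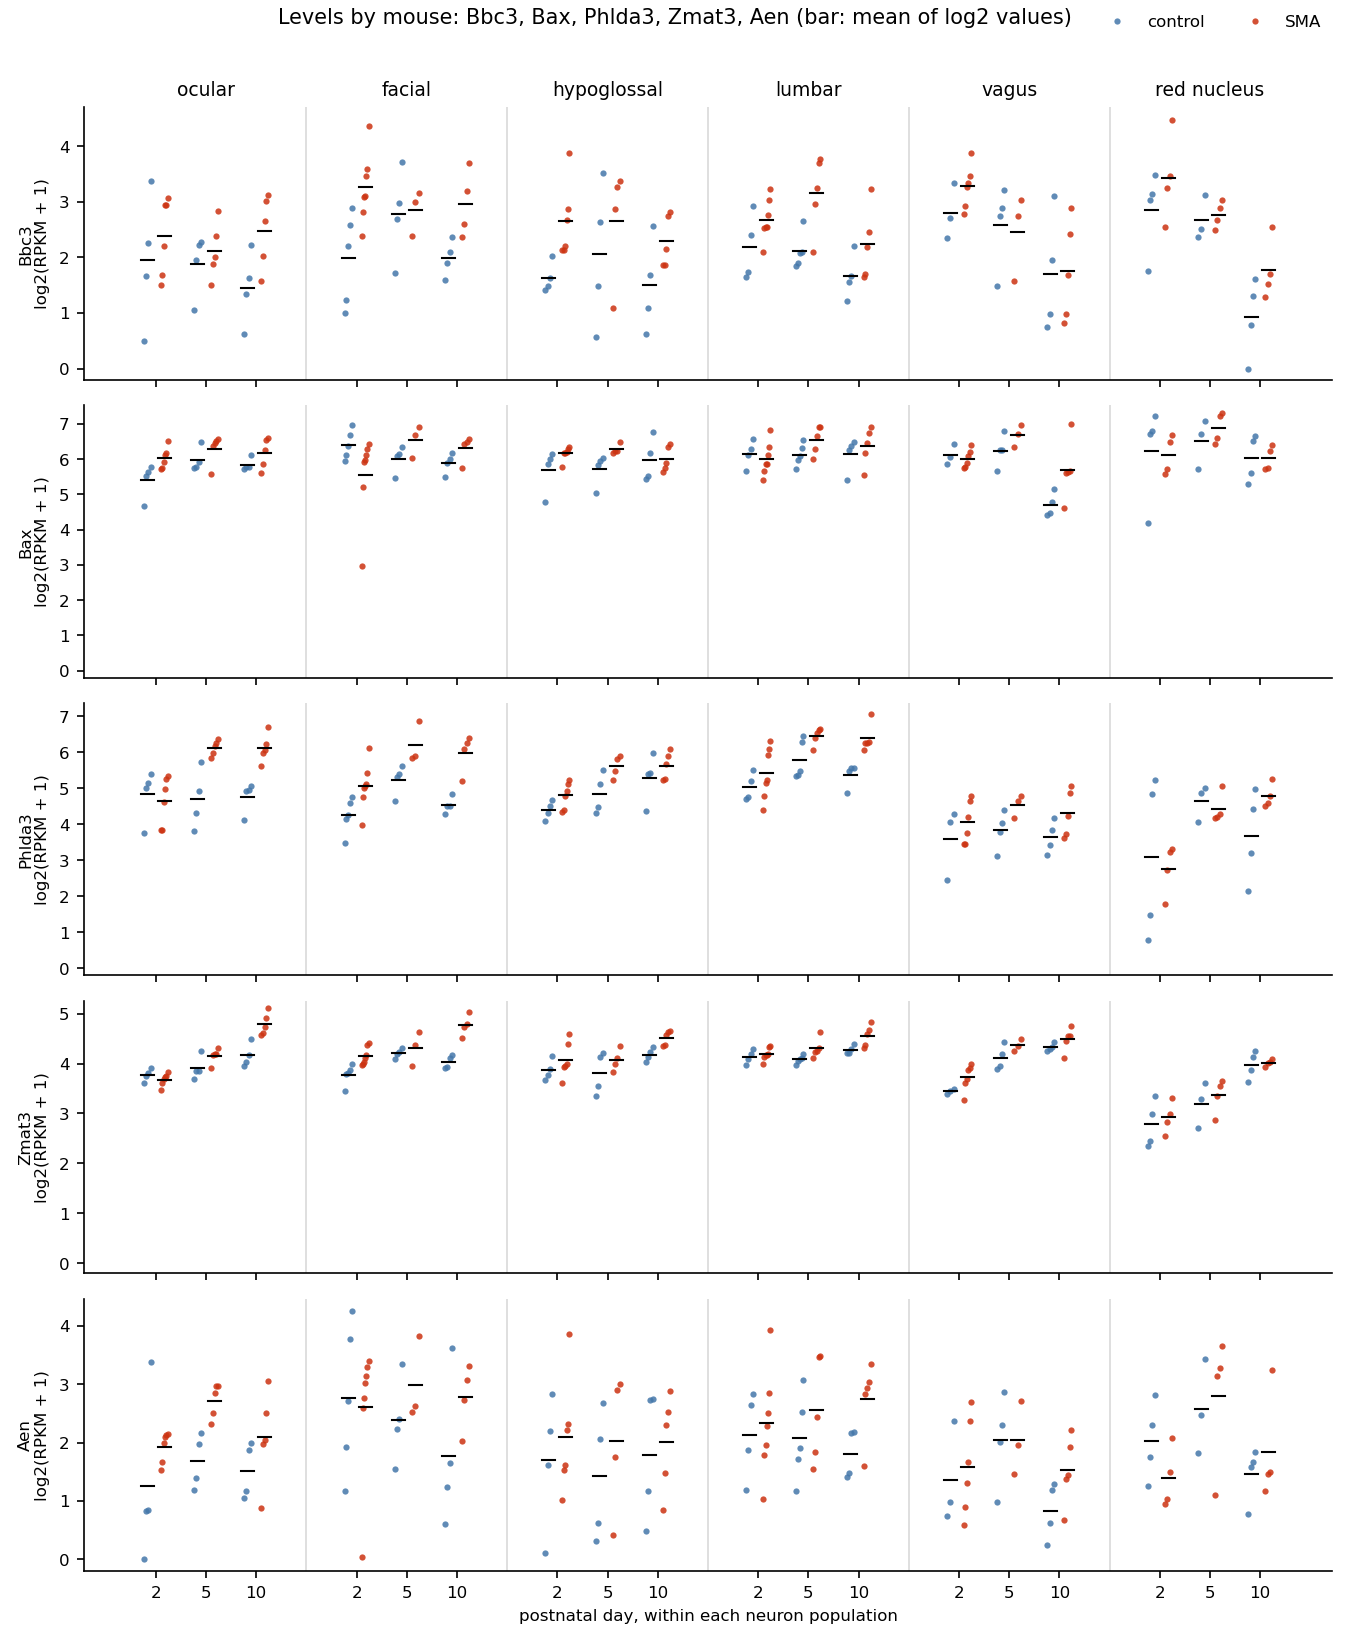
Levels of Bbc3, Bax, Phlda3, Zmat3 and Aen as log2(RPKM + 1) for each mouse (points) by population and postnatal day, control in blue and SMA in red, with the mean of the log2 values as a black bar. None of these 5 genes passed the test in any contrast; at day 10 Phlda3 is separate between genotypes in ocular, facial and lumbar neurons.

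The order of onset was read from the ages at which every SMA mouse lay above every control, a description beside which the share of all tested genes with that pattern is given. In facial neurons this held for Fas at day 2 (0.255% of all genes), for Tnfrsf10b, Pmaip1, Perp and Phlda3 at day 5 (4.05%) and for these 4, Fas and Zmat3 at day 10 (3.32%). Facial Fas overlapped at day 5, when there were 3 SMA mice. In ocular neurons it held for no member at day 2 (0.975%), for Phlda3 and Aen at day 5 (1.39%), and for Phlda3, Fas, Tnfrsf10b, Pmaip1, Perp and Zmat3 at day 10 (2.32%). Ocular Aen overlapped again at day 10.

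In hypoglossal neurons it held for Bbc3 at day 2 (1.16%), for Fas and Bax at day 5 (1.8%), and for Fas, Perp and Zmat3 at day 10 (1.86%), as well as for Tnfrsf10b and Pmaip1, which were below the filter. Hypoglossal Bbc3 overlapped at days 5 and 10 and Bax at day 10. In lumbar neurons it held for no member at day 2 (0.354%) or day 5 (0.769%), and at day 10 (2.76%) for Fas, Pmaip1 and Phlda3, and for Tnfrsf10b, which was below the filter. No member had this pattern at days 2, 5 and 10 in vagus neurons (1.81%, 3.01% and 0.569% of all genes) or in the red nucleus (2.54%, 2.43% and 3.56%). No member passed the test before day 10.

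At day 2, among all genes, 0.101% were called higher in SMA in ocular, 0.0116% in facial, 0.0243% in hypoglossal, 0.0061% in lumbar, 0.031% in red nucleus and 0% in vagus neurons. At day 5 the shares were 0.0189% in ocular, 0.0637% in facial, 0.0366% in lumbar and 0, 0 and 0% in hypoglossal, vagus and red nucleus neurons. At an unadjusted p under 0.05 in limma and in either direction, facial neurons had 5 of 9 members at day 2, ocular 1 of 9 and lumbar 1 of 8, where 9.07%, 11.2% and 5.71% of all genes were under it. At day 5 there were 5 of 9 in facial, 5 of 8 in lumbar, 2 of 9 in ocular and 2 of 7 in hypoglossal neurons, beside 5.47%, 8.14%, 7.04% and 6.01% of all genes. Cdkn1a, the cell cycle inhibitor p21, passed at day 5 in ocular (2.13), facial (3.85) and lumbar neurons (3.45) and at day 10 in these and hypoglossal neurons. Whether Cdkn1a and the 9 genes differ in timing was not tested.

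Whether the genotype difference varied among the 6 populations was tested over all samples. At day 10 it did for Fas (limma F, adjusted p = 2.29e-08), Tnfrsf10b (2.37e-07) and Pmaip1 (1.09e-09), where 0.579% of all genes passed. It did not pass for Perp (0.564), Zmat3 (0.694) or the other 4 genes (1 each). For Tnfrsf10b and Pmaip1, control samples alone would not have met the filter of the fit over all samples. At days 2 and 5 none of the 9 passed (0.4% and 0.207% of all genes), with Fas and Bax at day 2 and Fas and Pmaip1 at day 5 under an unadjusted p of 0.05.

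Of the 15 pairs of populations compared at day 10, 9 had a member whose genotype difference differed. The Fas difference was larger in each of 4 populations than in vagus neurons, by 3.79 ± 0.63 in ocular, 3.62 ± 0.64 in facial, 3.14 ± 0.63 in hypoglossal and 3.52 ± 0.63 in lumbar neurons (adjusted p of 3.2e-05, 0.00016, 0.00343 and 0.000249). It was also larger than in red nucleus neurons, by 3.51 ± 0.64 in ocular, 3.34 ± 0.66 in facial, 2.86 ± 0.64 in hypoglossal and 3.24 ± 0.64 in lumbar neurons (0.000954, 0.00214, 0.0471 and 0.00305). Pmaip1 differed in the same way for ocular, facial and lumbar neurons, by 2.28, 3.22 and 2.76 against vagus and by 2.10, 3.04 and 2.58 against red nucleus neurons, with adjusted p of at most 0.0130. The Tnfrsf10b difference was larger in facial neurons than in vagus (2.22 ± 0.32, adjusted p = 3.7e-07), red nucleus (2.17 ± 0.33, 2.36e-06) and hypoglossal neurons (1.59 ± 0.32, 0.00461). Tnfrsf10b was not detected in any vagus mouse of day 10, so the estimate against vagus is the facial difference itself. Control samples alone would not have brought Tnfrsf10b or Pmaip1 past the filter of this fit. Its errors were pooled over all groups, among them groups in which these genes were not detected.

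Among all genes, the pairs with vagus neurons passed in 0.193% for ocular, 0.337% for facial, 0.103% for hypoglossal and 0.198% for lumbar neurons. The pairs with red nucleus neurons passed in 0.121%, 0.287%, 0.0404% and 0.112%, and facial against hypoglossal neurons in 0.13%. Ocular, facial, hypoglossal and lumbar neurons did not differ from each other in the Fas response beyond its error. The estimate for ocular against facial neurons, for example, was 0.17 ± 0.64.

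In controls, 3 of the 9 genes differed among populations over the 3 ages, where 42.5% of all genes did. Zmat3 (limma F, adjusted p = 2.14e-11) was lowest in the red nucleus, at 9.97 ± 4.69 RPKM (SD, n = 11), and between 14.7 ± 2.95 (ocular, n = 12) and 16.9 ± 1.56 (lumbar, n = 13) elsewhere. Phlda3 (1.22e-08) was highest in lumbar neurons at 45.03 ± 18.4 (n = 13), followed by hypoglossal at 30.5 ± 14.5, ocular at 28.5 ± 11.8, facial at 25.8 ± 10.7, red nucleus at 18.6 ± 13.3 and vagus neurons at 12.9 ± 5.00, with neighbours in this order overlapping. Fas (0.0404) had a mean of 0.986 in lumbar and 0.956 in facial controls and of 0.00684 to 0.690 in the others.

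The other 6 genes did not pass among control populations. Means over control mice ran from 54.4 to 85.9 RPKM for Bax, 6.72 to 9.91 for Perp, 2.92 to 4.82 for Bbc3, 2.13 to 5.74 for Aen, 0.0476 to 0.382 for Pmaip1 and 0 to 0.223 for Tnfrsf10b. The order of levels within the 9 genes in controls was thus Bax, Phlda3, Zmat3, Perp, Bbc3 and Aen, with the receptors and Pmaip1 near 0. Over all control samples their means were 66.2, 27.5, 14.6, 7.98, 3.75 and 3.38 RPKM, and 0.477 for Fas, 0.212 for Pmaip1 and 0.0929 for Tnfrsf10b.

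Between days 2 and 10, control levels changed for 4 members. Beside the fall of ocular Perp (8.02% of all genes changed in ocular controls), Bax fell by 1.41 ± 0.35 in vagus neurons (adjusted p = 0.0485, 1.02% of all genes). In the red nucleus Bbc3 fell by 1.93 ± 0.45 (0.00698) and Zmat3 rose by 1.19 ± 0.30 (0.0111), with 11.1% of all genes changed. The red nucleus controls of day 10 include mouse 252 at 0.342 M reads, where 1 read of Bbc3 was worth 1.61 RPKM. The change without that library was not tested. No member changed with age in facial, hypoglossal or lumbar controls, where 5.36%, 5.11% and 12% of all genes did.

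Other genes of the same pathways were read from lists that were also chosen with earlier results of these data known. Of 17 p53 targets that stop the cell cycle or repair DNA, 7 were higher at day 10 in facial, 6 in lumbar, 5 in ocular and 4 in hypoglossal neurons, and none was lower. Gtse1, a regulator of p53 and microtubules, rose by 1.87 to 2.51 in these 4 populations, and Plk2, a polo-like kinase, by 1.96 to 2.97. Of p53 and its regulators, Trp53 rose in facial (1.62 ± 0.30, adjusted p = 0.00487) and Mdm2 in ocular (1.60 ± 0.31, 0.00763) and lumbar neurons (0.98 ± 0.24, 0.0468) at day 10. Trp73 was called higher in 1 of its 6 tests, also at day 10. Trp53 was also higher in ocular neurons at day 2 (1.72 ± 0.36, adjusted p = 0.0459). Of 12 other p53 targets tested, Dcxr and Eda2r had calls. Dcxr rose at day 10 in ocular (2.60, adjusted p = 0.0219), facial (3.90, 0.00637) and lumbar neurons (3.32, 0.000307). It had already risen at day 5 in lumbar neurons (3.33, 0.000345). Eda2r rose in facial neurons at day 10 (1.21, adjusted p = 0.0189). Of the tests of that list, 27.6% were at an unadjusted p under 0.05 in limma. The members passed in 9 of 45 tests at day 10 and the cell cycle and repair list in 22 of 99. Of all genes, 0.562% were called higher at that age in facial, 0.708% in lumbar, 0.334% in ocular and 0.0667% in hypoglossal neurons. In vagus and red nucleus neurons the shares were 0 and 0.0062%. Whether the 2 lists differ was not tested.

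The lists of the death receptor pathway, the BCL-2 family and the apoptosome and caspases had no calls. Of 9 genes of the death receptor pathway tested, of 13 other BCL-2 family genes and of 17 apoptosome and caspase genes, none passed in any of the 18 contrasts in limma. At an unadjusted p under 0.05 there were 19, 16 and 18 tests, which are 11.9%, 8.08% and 6.19% of the tests of these lists, beside 7.1% of the tests of all genes. Cflar, which blocks caspase activation at death receptors, came closest, at 0.952 to 12.04 RPKM in facial controls and 20.3 to 42.2 in facial SMA mice at day 10 (2.82 ± 0.70, adjusted p = 0.0603). At the same age its estimate was 1.44 in ocular, 1.40 in hypoglossal, 1.92 in lumbar, 2.00 in red nucleus and 0.16 in vagus neurons. Fasl, which encodes the ligand of Fas, had 0 to 1.21 in facial controls and 0.288 to 2.48 in facial SMA mice (0.35 ± 0.55, adjusted p = 0.978).

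The patterns most like those of the members were taken from 22270 genes over the 160 samples, as Pearson correlations after each population's mean was removed. These points share mice and depth, and the correlations are descriptions. Fas, Tnfrsf10b and Pmaip1 resembled each other, with r of 0.68 to 0.72. The nearest genes were Trim72 (0.77), Gtse1 (0.73) and Pmaip1 (0.72) for Fas, and Trim72 (0.80), Them5 (0.73) and Bglap2 (0.73) for Pmaip1. Tnfrsf10b was nearest to Pmaip1 (0.70), Trim72 (0.68) and Fas (0.68), and Perp to Ccng1 (0.46), Gpx3 (0.45) and Cdkn1a (0.44).

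The other members lay near other genes. Bax was nearest to Nsg1 (0.60), Pdlim7 (0.55) and Cfl1 (0.51), Bbc3 to Tuba1a (0.55), Ddit4 (0.53) and L3mbtl3 (0.52), and Aen to Arf1 (0.46), Hsp90aa1 (0.45) and Bax (0.42). Zmat3 was nearest to Vamp1 (0.65), Atp6v1b2 (0.64) and Pura (0.64), and Phlda3 to Ociad1 (0.63), Rgs7bp (0.57) and Vdac1 (0.57).

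Markers of other cells were read in the same samples. At day 10 the summed RPKM of 7 microglia markers was 3.82 to 8.61 in facial controls and 4.57 to 30.9 in facial SMA mice, 5.09 to 15.6 and 0.0489 to 17.4 in ocular, and 2.74 to 17.8 and 1.64 to 12.9 in lumbar neurons. None of the microglia, vessel or epithelial markers passed in any contrast (1, 5 and 6 tests at an unadjusted p under 0.05). Of 6 oligodendrocyte markers Mbp was higher in SMA in the red nucleus at day 2 (2.22 ± 0.37, adjusted p = 0.0351), and 13.3% of the tests of that list were at an unadjusted p under 0.05. Of 6 astrocyte markers Gfap rose in facial neurons at day 10, from 0.726 to 3.00 RPKM in controls to 11.6 to 22.8 in SMA (2.81 ± 0.54, adjusted p = 0.00742), beside the 4 calls there, and the summed astrocyte markers were at 744 to 813 and 527 to 799. The summed motor neuron markers in ocular neurons at day 10 were 955 to 1046 in controls and 460 to 896 in SMA, with no marker past the threshold. The part of these markers in the results was not tested.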

How the data were processed

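The authors deposited 1 table of RPKM for 39410 genes in 168 libraries of neurons collected by laser. Alignment used STAR 2.4.1c, and mm10 and hg19 are the builds named, per the submitters' processing notes. The counter, the annotation and the use of strand are not given in the sources used here. Genotype, age and mouse came from the labels. The 9 genes and all lists were chosen with earlier results of these data known.

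Libraries of the same mouse and population were averaged, which joined libraries in 8 of the 160 samples. Ocular libraries differed in nucleus. At day 5 control mouse 29 had oculomotor neurons only, and control mice 30 and 75 had a library of each nucleus. All ocular SMA libraries of day 5 held both nuclei. At day 10 ocular SMA mouse 258 had oculomotor neurons only. Log2(RPKM + 1) was tested with limma 3.58.1 in R 4.3.3 (trend), in 1 fit per population with 6 groups. A gene was tested where it reached 1 RPKM in a number of samples equal to the smallest group. Adjustment over all genes of a contrast followed Benjamini and Hochberg, with a threshold of 0.05, and the fit was tested on simulated data. A log2 difference on this scale understates changes of low genes.

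Low values fall on steps that 1 read makes, from which depth and the floor of 3 reads were computed. In each library 67.8 to 80.7% of values of single-transcript genes came out whole within a tolerance of 0.02. RPKM steps depend on gene length, so no count test was run. Positions are from GENCODE M21, by symbol.

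Genes named were the 9 members, Smn1, Cdkn1a, up to 4 genes per other list, those called in the most contrasts, and the 3 genes most like each member. Fasl, Cflar, Chat and Pou4f1 were added after their values were seen. Mouse numbers mark the same animal across populations, and SMA and control share no mice. Deviations from group means had a median correlation of 0.0328 between samples of the same mouse and of -0.00642 between other mice. Alternatives were another pseudocount, no filter, quantile normalization, robust variances, libraries as samples, deeper libraries only, 2 groups per fit, all samples in 1 fit, the mouse as a block, and leaving out mice.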

Additional observations from a re-analysis of the deposited data

Results flagged for a closer look

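In 25 of 226 groups of 4 to 10 mice with a level of 1 RPKM or more, a single mouse stood apart from the rest by Dixon's criterion, which chance alone meets in about 1 in 20 groups. For Fas these were control mouse 75 (6.11 RPKM) and SMA mouse 76 (7.11) in ocular neurons at day 5, control mouse 247 in ocular neurons at day 10 (2.10), control mouse 30 in lumbar neurons at day 5 (4.86), SMA mouse 207 in hypoglossal neurons at day 2 (1.75) and SMA mouse 249 in the red nucleus at day 10 (1.87). SMA mouse 76 also stood apart for Tnfrsf10b in ocular neurons at day 5 (2.39). For Pmaip1 they were SMA mouse 207 at day 2 (5.55) and SMA mouse 250 at day 10 (3.07), both in ocular neurons, and control mouse 253 in vagus neurons at day 10 (1.05).

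Facial SMA mouse 38 at day 2 was low for both Bax (6.74, the next mouse at 35.99) and Aen (0.0331, the next at 5.02). The other Bax values were 52.2 in facial SMA mouse 196 at day 10, 53.9 in hypoglossal SMA mouse 16 at day 2, 46.4 in ocular SMA mouse 46 at day 5, 68.3 in ocular control mouse 254 at day 10 and 17.2 in red nucleus control mouse 244 at day 2. Aen reached 8.45 in red nucleus SMA mouse 258 at day 10. Perp was at 0.878 in facial SMA mouse 207, 2.32 in hypoglossal SMA mouse 211 and 41.0 in vagus SMA mouse 18, all at day 2. Phlda3 was at 133 in lumbar SMA mouse 249 and 28.2 in lumbar control mouse 254 at day 10, 16.5 in ocular control mouse 247 at day 10 and 32.2 in red nucleus SMA mouse 77 at day 5.

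The genotype difference differed among populations at day 10 for Fas (limma F, adjusted p = 2.29e-08), Tnfrsf10b (2.37e-07) and Pmaip1 (1.09e-09). It differed among ages for Fas in ocular neurons (0.0263) and Pmaip1 in facial neurons (0.0198), and between days 2 and 10 for Tnfrsf10b in facial neurons (0.0173). Except for Fas among populations, control samples alone would not have brought these genes past the filter.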

How the results depend on the processing

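Of 2713 values under the alternatives, 0 were labelled reversed. That label needed an opposite sign and an adjusted p under 0.05 in the main or the alternative fit. Counts of calls could not get it, and tests that passed in neither fit could change sign without it. With a pseudocount of 0.1 the members called in ocular neurons at day 10 went from 2 to 1. Those whose difference changed with age went to 0 in ocular and 0 in facial neurons, and the population pairs at day 10 to 1 for ocular against vagus, 1 for vagus against lumbar and 0 for ocular, hypoglossal and lumbar against red nucleus and for facial against hypoglossal neurons. With no filter, hypoglossal neurons at day 10 had 3 calls. Quantile normalization and robust variances each gave 1 call in facial neurons at day 2. With all samples in one fit there were 4 calls in ocular and 2 in hypoglossal neurons at day 10, 2 in lumbar and 1 in facial neurons at day 5 and 1 in facial neurons at day 2. Adding the mouse as a replicate block to that fit gave the same counts of 4, 2, 2, 1 and 1. Leaving out each mouse in turn gave 3 to 4 calls in facial neurons at day 10, 1 to 2 in ocular neurons at day 10, and 0 to 1 in facial neurons at day 2, facial neurons at day 5 and lumbar neurons at day 5. The cause was not tested. For tests that missed the threshold, the settings named in the results are mainly those under which they passed. Nothing in the labels marks samples of the 2 genotypes as pairs. Depth limits Fas, Tnfrsf10b and Pmaip1 most, since 1 read was worth a median of 0.114, 0.0535 and 0.0641 RPKM.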

Other observations

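SMA mouse 31 at day 5 had the highest Cdkn1a level of its age in ocular (273 RPKM), facial (498), hypoglossal (174.1), vagus (360) and red nucleus neurons (392). Its Fas level in the same samples was 0.198, 5.92, 0.420, 0 and 0 RPKM. At day 10 SMA mouse 249 had the highest Fas level in ocular (35.95) and hypoglossal neurons (17.4) and the single value above 0 in the red nucleus (1.87), and it had 15.01 in facial and 15.4 in lumbar neurons. These mice were picked out after their values were seen.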
